A study of Mus musculus with 11 samples.

Results

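Genes at 10 human Alzheimer risk loci that act in endocytosis or on the actin cytoskeleton were followed in mouse microglia that face amyloid. Their mouse orthologues Abi3, Bin1, Picalm, Rin3, Cd2ap, Ptk2b, Sorl1, Cass4, Fermt2 and Clu were taken by gene name from a table of 55401 genes, and each name matched 1 row. Of these 10 genes, 9 passed the filter on low counts, which left 20390 genes for testing, and Fermt2 did not. The mice were 9 to 10 months old on a C57BL/6 background. Every animal, controls included, was of the NLGF strain, an App knock-in model of amyloid plaques. Libraries came from 3 Tyrobp-/-;Inpp5d+/-;NLGF mice (the compound mutant), 2 Tyrobp-/-;NLGF, 3 Inpp5d+/-;NLGF and 3 NLGF mice. Tyrobp encodes DAP12, the adaptor through which the receptor TREM2 signals, and Inpp5d encodes the phosphatase SHIP1, which opposes such signals. How the Tyrobp and Inpp5d alleles were made is not given in the sources used here. Cells gated as live and positive for CD11b and CD45 served as microglia.

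Microglia sample their surroundings with motile processes and take up debris and protein aggregates, which needs branched actin at the membrane, clathrin-coated pits and sorting in early endosomes. Abi3 is related to adaptors of the WAVE complex, which starts actin branching. Bin1, Picalm, Rin3, Cd2ap and Sorl1 shape, coat or sort endocytic membrane, while Ptk2b, Cass4 and Fermt2 belong to adhesion signalling at integrins. Clu encodes clusterin, a secreted apolipoprotein made in brain mostly by astrocytes.

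Library totals ran from 29490567 to 66637052 counts, and 3 counts in a library, the limit that a count of 0 allows, corresponded to 0.0477 to 0.100 CPM (the usual depth-scaled read count, on library sizes adjusted by TMM). All 8 fixed microglia markers had counts in every library, with a summed level of 39849 to 41355 CPM in the 5 Tyrobp-/- libraries and 35263 to 41128 CPM in the 6 others. Tyrobp was at 3.22 to 8.94 CPM in the Tyrobp-/- libraries, against 1952 to 2560 CPM in the others. Inpp5d was at 190 to 260 CPM in the compound mutant and 447 to 449 CPM in Tyrobp-/-;NLGF, and at 191 to 280 CPM in Inpp5d+/-;NLGF and 205 to 436 CPM in NLGF, where NLGF replicate 2 (205 CPM) lay within the range of the heterozygotes. The summed level of 8 neutrophil markers was 255 to 18911 CPM in the 5 Tyrobp-/- libraries and 0.609 to 233.2 CPM in the 6 others, with no marker at 0 in the Tyrobp-/- libraries and 0 to 5 at 0 in the others. The 6 monocyte markers summed to 99.2 to 1877 CPM in Tyrobp-/- libraries and 11.4 to 55.0 CPM in the others. The 6 markers of border macrophages summed to 19.1 to 120 CPM and 0.734 to 25.3 CPM. In Tyrobp-/- libraries Chil3 (mean 548 CPM) was the highest of the monocyte markers and F13a1 (mean 47.0 CPM) of the border macrophage markers. The border macrophage marker Mrc1 overlapped, at 0.388 to 17.2 CPM and 0 to 16.4 CPM. These 3 genes were singled out after their values were seen. Sample numbers of the Tyrobp-/- mice fall in a separate range from those of the other mice, so handling or litter and the Tyrobp genotype cannot be told apart.

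Because Abi3 was the member that passed the test, its exons are shown first. Abi3 (ENSMUSG00000018381.15) lies on the minus strand of chromosome 11 at 95830074 to 95842476 (GRCm38), and exons of other genes on the opposite strand cover 3147 of its 4153 exon bases (75.8%). Exons of the zinc finger gene Zfp652 cover 2913 of these bases and those of Phospho1 cover 1708, and Gngt2, which encodes a G protein gamma subunit, covers a shorter stretch. The libraries were made with a kit that does not mark strand, so reads from shared bases cannot be assigned to 1 gene. In the transcript Abi3-201 (GENCODE M21), 630 of 1101 coding bases (57.2%) lie under exons of Zfp652 or Phospho1. Exons 2 and 3 are the exons that are coding throughout and lie outside those of Zfp652 and Phospho1. They are written 5′ to 3′ on the minus strand, and capitals mark the 22 bases that Gngt2 shares.
Abi3 exon 2, chr11:95837070-95837237: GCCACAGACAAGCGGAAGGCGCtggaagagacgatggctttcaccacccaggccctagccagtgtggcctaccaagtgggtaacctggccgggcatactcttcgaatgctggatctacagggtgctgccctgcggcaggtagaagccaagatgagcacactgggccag
Abi3 exon 3, chr11:95835778-95835954: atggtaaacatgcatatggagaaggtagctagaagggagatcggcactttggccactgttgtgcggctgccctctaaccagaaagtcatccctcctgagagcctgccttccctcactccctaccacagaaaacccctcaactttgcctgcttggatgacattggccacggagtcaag
The deposited table gives 1 count per gene and not per exon, so how many reads fell in these exons is not known. Among the other members, exons of an antisense gene covered 21.2% of the exon bases of Cass4, 6.2% of those of Bin1 were shared with A830052D11Rik, and 1.6% of those of Sorl1 were shared with Gm16214. No exon base of Picalm, Rin3, Cd2ap, Ptk2b, Fermt2 or Clu was shared with another row.

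Levels between genes were compared per exon length, as CPM per kb of the exon length in the deposited table, over all 11 libraries. Bin1, an amphiphysin that bends membrane, stood highest at 72.8 ± 9.42 CPM per kb (SD, n = 11), followed by Abi3 at 54.9 ± 10.7. On the 1006 exon bases of Abi3 that no other gene shares, its counts would correspond to 227 CPM per kb. The order of Abi3 and Bin1 therefore depends on which reads were counted. Phospho1, with 1708 of its 2029 exon bases shared with Abi3, was at a mean of 1.77 CPM, where Abi3 was at 228 CPM. How reads of shared bases were counted was not tested. Ptk2b, the kinase PYK2 of the focal adhesion kinase family, was at 10.6 ± 1.81 and Picalm, a clathrin assembly protein, at 9.89 ± 1.20 CPM per kb. Cass4, a scaffold of the Cas family, was at 3.25 ± 1.13, and Rin3, an exchange factor for RAB5-type GTPases, was at 2.98 ± 0.932. Sorl1, a receptor that sorts APP between endosomes and the Golgi, was at 2.28 ± 0.931, and Cd2ap, an adaptor between receptors and actin, at 1.44 ± 0.266. Clu was at 0.267 ± 0.424 and Fermt2 at 0.0161 ± 0.0512 CPM per kb. Of the 9 neighbouring pairs in this order, the ranges over libraries were separate only between Abi3 and Ptk2b and between Picalm and Cass4. The other 7 pairs overlapped. Compared within each library, Bin1 lay above Abi3, Sorl1 above Cd2ap and Cd2ap above Clu in 10 of 11 libraries. Cass4 lay above Rin3 and Rin3 above Sorl1 in 7 of 11. Ptk2b lay above Picalm and Clu above Fermt2 in 6 of 11. The deposited length joins the exons of all transcripts of a gene. By CPM without length the order differed, for example with Picalm (156 CPM) above Ptk2b (78.4 CPM).

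**Figure D1:**
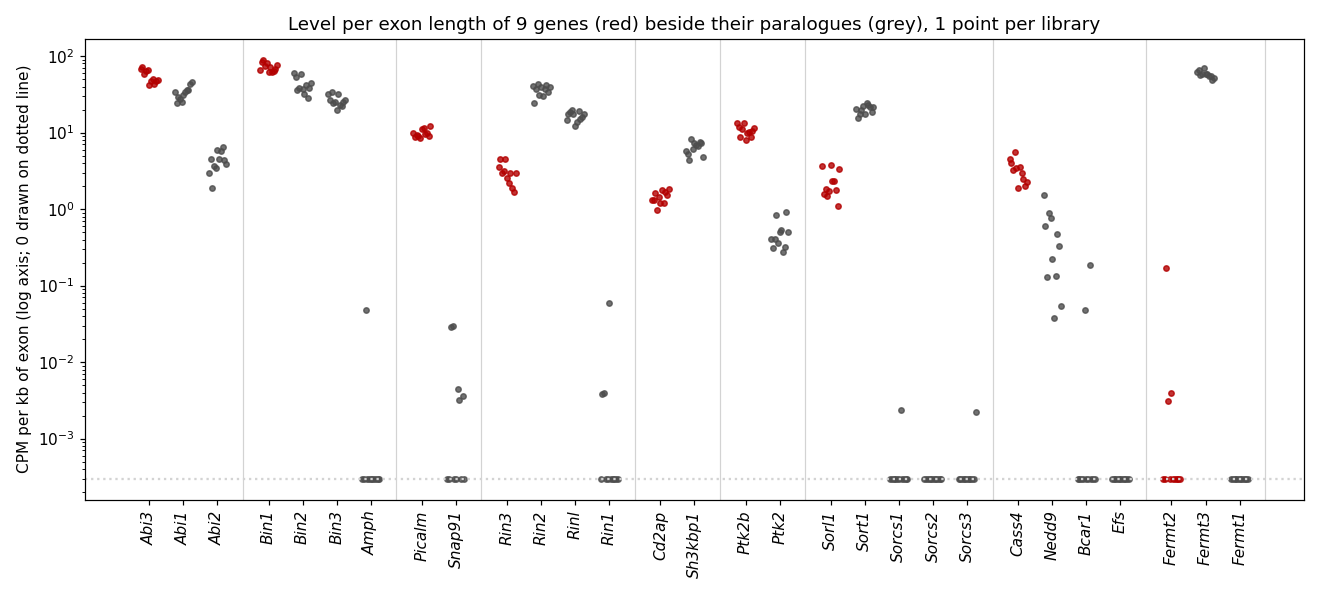
Level per exon length (CPM per kb, log axis, zeros on the dotted line) of 9 members in red beside their paralogues in grey, 1 point per library. Fermt3 lies at 49.4 to 70.7 CPM per kb in all 11 libraries, while Fermt2 has no counts in 8 of them.

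Beside their paralogues, the members were not always the family member with the most RNA in these cells. Rin2 at 36.2 ± 5.78 and Rinl at 16.5 ± 2.37 CPM per kb stood above Rin3, and the sorting receptor gene Sort1 at 20.1 ± 2.65 stood above Sorl1. The CD2AP relative Sh3kbp1 was at 6.40 ± 1.22 CPM per kb, above Cd2ap, in ranges that did not overlap (4.37 to 8.24 for Sh3kbp1 and 0.986 to 1.82 for Cd2ap). Fermt3, the kindlin gene of blood cells, was at 58.2 ± 6.13 CPM per kb, where Fermt2 was near 0. In other families the member led. Abi3 stood above Abi1 (33.2 ± 6.93) and Abi2 (4.28 ± 1.34), with overlap of the ranges of Abi3 and Abi1. Bin1 stood above Bin2 (42.6 ± 10.5) and Bin3 (26.4 ± 4.39). Ptk2b stood above Ptk2 (0.487 ± 0.210), Cass4 above Nedd9 (0.468 ± 0.454), and Picalm above Snap91, which had 35 counts over all libraries.

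Abi3 was the member that rose in libraries without Tyrobp. It was at 243, 266 and 271 CPM in the compound mutant, 282 and 295 CPM in Tyrobp-/-;NLGF, 172, 194 and 207 CPM in Inpp5d+/-;NLGF and 180, 198 and 200 CPM in NLGF. Every library without Tyrobp lay above every library with it. In bulk samples such as these, more cells of a type and more RNA per cell cannot be told apart. The log2 fold change was 0.58 between Tyrobp-/-;NLGF and NLGF (SE 0.10, edgeR's quasi-likelihood test, adjusted p = 0.0389), in a comparison where 0.863% of genes passed in either direction, 0.255% of them higher and 0.608% lower. In that comparison 15.6% of genes had libraries that lay higher without overlap. On the Inpp5d+/- background the log2 fold change was 0.45 (SE 0.094) and missed the threshold (edgeR adjusted p = 0.0669), with the libraries apart, as for 9.36% of genes. The mean Tyrobp effect, which averages both comparisons with 5 libraries against 6, was 0.51 (SE 0.070, edgeR adjusted p = 0.00387), a rise of 1.43-fold, where 4.75% of genes passed (2.08% higher and 2.66% lower) and 2.7% had every Tyrobp-/- library above every other library.

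The call in Tyrobp-/-;NLGF against NLGF was kept in 3 of 11 fits that left out a library (without compound replicate 1, Inpp5d+/-;NLGF replicate 1 or replicate 3), and edgeR adjusted p values over the 11 ran from 0.0357 to 0.230. The mean Tyrobp effect was called in all 11 such fits, at log2 fold changes of 0.48 to 0.55. It was not called with the neutrophil markers as a covariate (0.37, SE 0.14, edgeR adjusted p = 0.417) or without the 2 libraries with most S100a8, Tyrobp-/-;NLGF replicate 1 and compound replicate 2 (0.52, SE 0.098, edgeR adjusted p = 0.0578). Neutrophil sums were 255 to 18911 CPM in the Tyrobp-/- libraries and 0.609 to 233.2 CPM in the others, without overlap. The covariate fit therefore cannot cleanly separate neutrophil RNA from the Tyrobp genotype. The part of neutrophil RNA in the level of Abi3 was not tested.

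**Figure D2:**
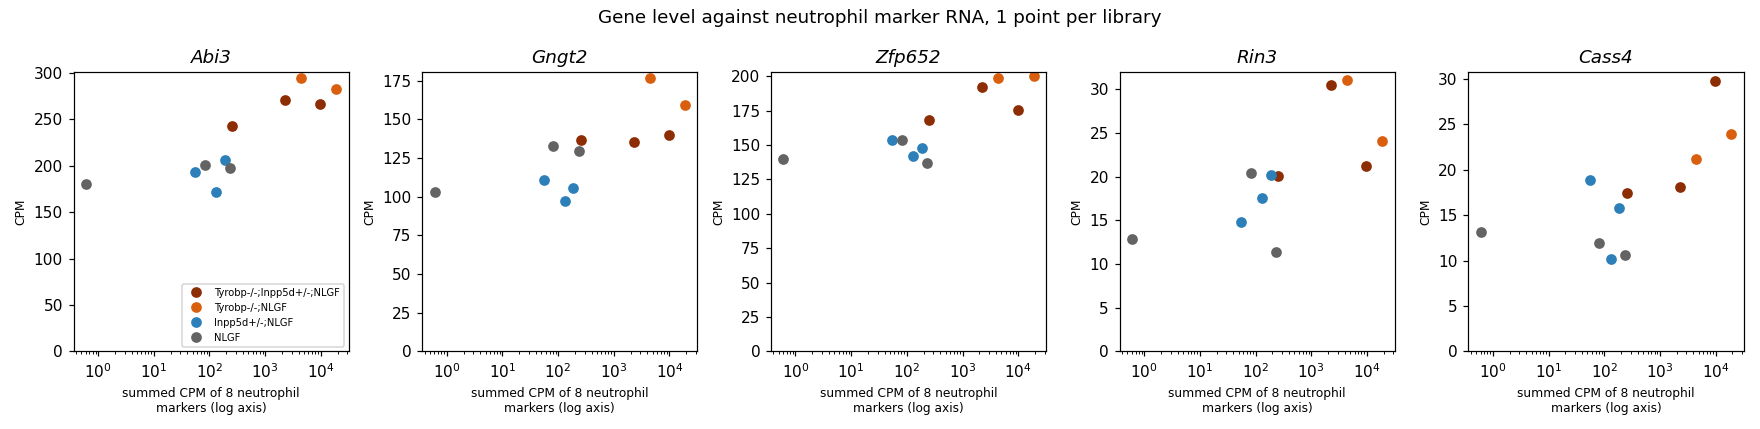
Level of 5 genes (CPM, vertical axes from 0) against the summed level of 8 neutrophil markers (CPM, log axis), 1 point per library, coloured by genotype. Abi3 lies at 243 to 295 CPM in the 5 Tyrobp-/- libraries and 172 to 207 CPM in the 6 others. The neutrophil sums of these groups are also separate, at 255 to 18911 CPM and 0.609 to 233.2 CPM.

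Genes that share exon bases with Abi3 were also higher. Zfp652 was at 168 to 200 CPM (median 192) in the 5 Tyrobp-/- libraries and 137 to 154 CPM (median 145) in the 6 others, with no overlap. Its mean Tyrobp effect was a log2 fold change of 0.37 (SE 0.066, edgeR adjusted p = 0.0132). Gngt2 was at 136 to 177 CPM (median 140) and 97.4 to 133 CPM (median 108), with a log2 fold change of 0.43 (SE 0.085, edgeR adjusted p = 0.0214). Phospho1 was at only 1.66 to 2.81 CPM in the 5 Tyrobp-/- libraries and 0.601 to 2.58 CPM in the 6 others. Its log2 fold change of 0.68 (SE 0.35) did not pass (edgeR adjusted p = 0.341). How far reads of shared bases carry the rise of any of these genes to the others was not tested.

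The 3 genes whose log2 CPM profile over the 11 libraries was closest to that of Abi3, among 10459 genes of at least 5 CPM, were Sparc, Gm45799 and Med6. Their root mean square differences from the centred profile of Abi3 were 0.0788, 0.0911 and 0.0967 on the log2 scale, against an SD of 0.278 of the Abi3 profile itself. Sparc encodes a secreted matrix protein and Med6 a subunit of the Mediator complex.

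Cass4 and Rin3 had larger fold changes than Abi3 in the mean Tyrobp effect but a wider spread, and neither passed. Cass4 was at 17.4, 29.8 and 18.1 CPM in the compound mutant, 24.0 and 21.1 CPM in Tyrobp-/-;NLGF, 10.2, 18.9 and 15.8 CPM in Inpp5d+/-;NLGF and 13.2, 10.6 and 11.9 CPM in NLGF. Inpp5d+/-;NLGF replicate 2 reached the range of the Tyrobp-/- libraries, while the NLGF libraries lay below all of them. The mean Tyrobp effect on Cass4 was a log2 fold change of 0.73 (SE 0.21, edgeR adjusted p = 0.0791). It was 0.92 (SE 0.31) in Tyrobp-/-;NLGF against NLGF and 0.54 (SE 0.28) on the Inpp5d+/- background. Compound replicate 2, highest for Cass4, also had the second largest neutrophil sum (9784 CPM), and without it and Tyrobp-/-;NLGF replicate 1 the mean Tyrobp effect on Cass4 was 0.54 (SE 0.23).

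Rin3 was at 20.0, 21.3 and 30.5 CPM in the compound mutant, 24.1 and 31.0 CPM in Tyrobp-/-;NLGF, 17.6, 14.8 and 20.2 CPM in Inpp5d+/-;NLGF and 12.9, 11.4 and 20.5 CPM in NLGF. The highest libraries with Tyrobp overlapped the lowest compound library. Its mean Tyrobp effect was a log2 fold change of 0.67 (SE 0.20, edgeR adjusted p = 0.0963), with 0.88 (SE 0.29) in Tyrobp-/-;NLGF against NLGF and 0.45 (SE 0.27) on the Inpp5d+/- background. Of 11 fits that left out a library, 1 called Rin3, that without NLGF replicate 3 (0.82, edgeR adjusted p = 0.0439). The other 10 gave 0.56 to 0.75 with edgeR adjusted p values of 0.110 to 0.305, and the neutrophil covariate gave 0.55 (edgeR adjusted p = 0.773). DESeq2 called Abi3, Cass4 and Rin3 in the mean Tyrobp effect, with adjusted p values of 4.5e-10, 0.0121 and 0.0185, where it called 11.5% of the 18831 genes it gave an adjusted p.

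**Figure D3:**
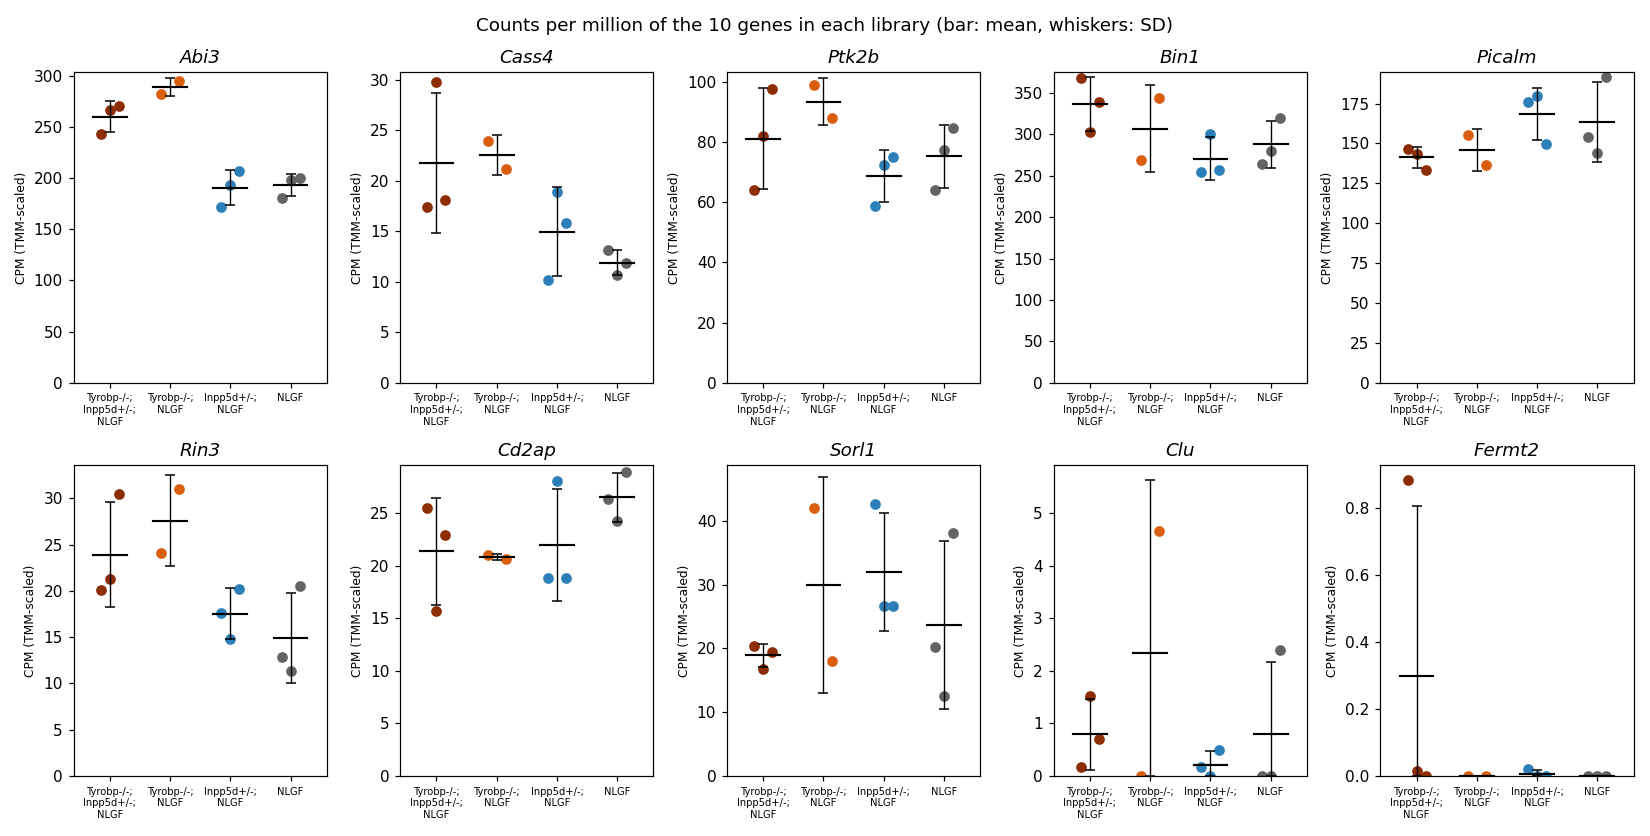
Level of each member (CPM, vertical axes from 0) by genotype, 1 point per library, with the mean as a bar and the SD as whiskers that stop at 0. The 5 Tyrobp-/- libraries of Abi3 lie at 243 to 295 CPM, above the 172 to 207 CPM of the 6 other libraries, while the other members overlap.

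With all 11 libraries, edgeR called no member other than Abi3 in any of the 7 comparisons. Ptk2b was at 64.0, 81.9 and 97.7 CPM in the compound mutant, 99.0 and 88.0 CPM in Tyrobp-/-;NLGF, 58.9, 72.3 and 75.0 CPM in Inpp5d+/-;NLGF and 64.0, 77.3 and 84.8 CPM in NLGF. Compound replicate 1 lay among the libraries with Tyrobp, and the mean Tyrobp effect was a log2 fold change of 0.28 (SE 0.13, edgeR adjusted p = 0.293).

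Bin1 was at 368, 302.3 and 338 CPM in the compound mutant, 269 and 344 CPM in Tyrobp-/-;NLGF, 254, 300.7 and 257 CPM in Inpp5d+/-;NLGF and 264, 280 and 319 CPM in NLGF. The compound libraries lay above all Inpp5d+/-;NLGF libraries, at the closest by 302.3 against 300.7 CPM, with a log2 fold change of 0.31 (SE 0.13, edgeR adjusted p = 0.332). Between Tyrobp-/-;NLGF and NLGF the libraries overlapped (log2 fold change 0.09, SE 0.14).

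Picalm was at 146, 144 and 134 CPM in the compound mutant, 155 and 136 CPM in Tyrobp-/-;NLGF, 176, 180 and 150 CPM in Inpp5d+/-;NLGF and 154, 144 and 192 CPM in NLGF. All compound libraries lay below all Inpp5d+/-;NLGF libraries (log2 fold change -0.25, SE 0.13, edgeR adjusted p = 0.418), in a comparison where 9.22% of genes were lower without overlap. The mean Tyrobp effect was -0.21 (SE 0.096, edgeR adjusted p = 0.271). Over all libraries Picalm had the smallest coefficient of variation of the members, 12.1%.

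Cd2ap was at 25.5, 15.6 and 22.9 CPM in the compound mutant, 21.0 and 20.6 CPM in Tyrobp-/-;NLGF, 18.9, 28.1 and 18.8 CPM in Inpp5d+/-;NLGF and 26.4, 24.3 and 28.9 CPM in NLGF. Both Tyrobp-/-;NLGF libraries lay below the NLGF libraries (log2 fold change -0.35, SE 0.25, edgeR adjusted p = 0.655), as for 14% of genes. On the Inpp5d+/- background the libraries overlapped (log2 fold change -0.04, SE 0.23).

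Sorl1 varied most among the members with over 1 CPM, with a coefficient of variation of 40.9%. It was at 20.4, 16.8 and 19.4 CPM in the compound mutant, 41.9 and 18.0 CPM in Tyrobp-/-;NLGF, 42.6, 26.6 and 26.7 CPM in Inpp5d+/-;NLGF and 20.3, 12.5 and 38.1 CPM in NLGF. The compound libraries lay below those of Inpp5d+/-;NLGF (log2 fold change -0.76, SE 0.42, edgeR adjusted p = 0.462), while the Tyrobp-/-;NLGF and NLGF libraries overlapped (0.34, SE 0.46). Sorl1 had the largest interaction of Tyrobp and Inpp5d among 8 members without Clu, -1.10 (SE 0.62), which did not pass by edgeR. The high level in Tyrobp-/-;NLGF replicate 1 (41.9 CPM) made this interaction more negative. The high level in NLGF replicate 3 (38.1 CPM) made it less negative. Over the fits without 1 library the interaction ran from -1.63 to -0.37.

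Fermt2 and Clu had no counts in several libraries. Fermt2, which encodes kindlin-2, a coactivator of integrins, had 47 counts in compound replicate 1, 1 count in compound replicate 2, 1 count in Inpp5d+/-;NLGF replicate 1 and 0 in the other 8 libraries. No fold is given, since Fermt2 did not pass the filter on low counts and the other groups were at or under 3 counts in each library. Compound replicate 1 also had the largest summed level of the 8 neuron markers, 19.5 CPM against 0.277 to 8.20 CPM in the other 10 libraries, and 8.04 CPM of the neuron gene Snap25, against 0 to 3.70 CPM. Markers of other cells were mixed there and were singled out after their values were seen. The astrocyte gene Gja1 (3.69 CPM) and the endothelial gene Cldn5 (0.226 CPM) were at their highest. The astrocyte gene Aqp4 (1.51 CPM) was higher in Tyrobp-/-;NLGF replicate 1 (2.65 CPM). The summed level of 6 endothelial markers (5.29 CPM) was the lowest of all libraries. The part of RNA from other brain cells in the Fermt2 counts was not tested.

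Clu had 9, 95 and 35 counts in the compound mutant, 0 and 252 in Tyrobp-/-;NLGF, 8, 0 and 17 in Inpp5d+/-;NLGF and 0, 0 and 150 in NLGF. Libraries with 0 counts and libraries with over 90 counts occurred within the same genotype, up to 4.66 CPM, and no comparison of Clu passed by edgeR. Since 4 libraries were at 0, no fold is given. Of 8 astrocyte markers, 1 to 4 were at 0 in each library, and the water channel gene Aqp4 was at 0 to 2.65 CPM in Tyrobp-/- libraries and 0 to 1.59 CPM in the others. The summed level of the 8 markers (230.5 to 270 CPM and 177 to 272 CPM) was mostly that of Slc1a3, singled out after its values were seen, at 220 to 262 CPM in Tyrobp-/- libraries and 163 to 252 CPM in the others. The part of astrocyte RNA in the Clu counts was not tested.

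**Figure D4:**
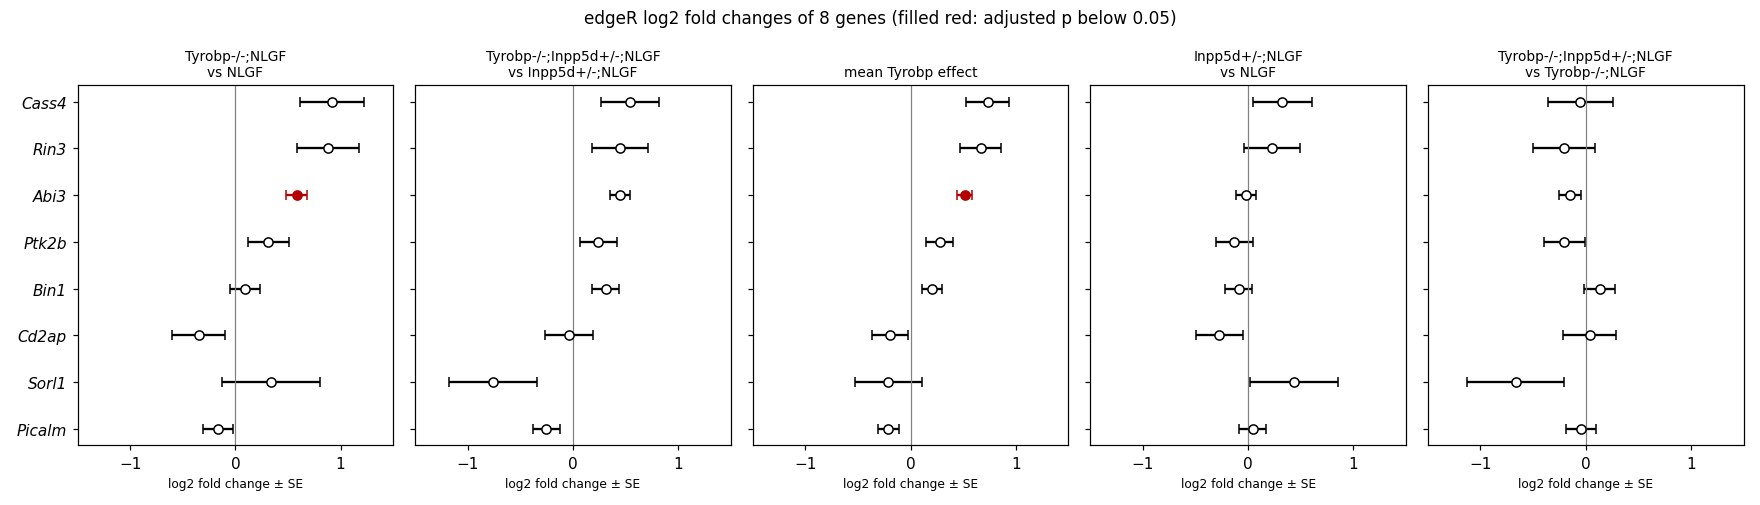
Log2 fold changes with SE from edgeR for the 8 members with enough counts, in 5 comparisons (first group of each title over the second). Abi3 alone passes, at 0.58 in Tyrobp-/-;NLGF against NLGF and 0.51 in the mean Tyrobp effect, while the widest intervals belong to Sorl1.

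Counted over the list, 1 of 9 tested members rose and none fell by edgeR in the mean Tyrobp effect, where 4.75% of all genes were called, and in Tyrobp-/-;NLGF against NLGF, where 0.863% were. In each, 3 members had an unadjusted p below 0.05 (Abi3, Cass4 and Rin3), as did 19.2% and 12.1% of all genes. On the Inpp5d+/- background edgeR called none of 9, where 0.897% of genes passed and 2 members (Abi3 and Bin1) had an unadjusted p below 0.05, as did 13.4% of genes. DESeq2 called Abi3 there, with 5.88% of genes. In the compound mutant against NLGF edgeR also called none, where 0.873% of genes passed, and 3 members had an unadjusted p below 0.05, as did 13% of genes. Abi3 and Cass4 lay higher without overlap there, as for 9.04% of genes, with Abi3 at a log2 fold change of 0.43 (SE 0.094, edgeR adjusted p = 0.0802), and DESeq2 called Abi3 with 5.8% of genes. The median log2 fold change of the 9 members in the mean Tyrobp effect was 0.28, beside 0.02 over all genes tested. This median includes Clu, whose own fold is not given because of its libraries at 0. These comparisons share libraries and are not independent of each other.

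No member was called by edgeR or DESeq2 when 1 Inpp5d copy was lost. For Inpp5d+/-;NLGF against NLGF, edgeR called none of the 9 members and 0% of all genes; no member had an unadjusted p below 0.05, as 4.66% of all genes did, and DESeq2 called no member. Inpp5d itself was not called by edgeR in that comparison, where NLGF replicate 2 (205 CPM) lay within the range of the heterozygotes. The comparison therefore cannot show that the members were unchanged. Abi3 had a log2 fold change of -0.02 (SE 0.094) and Sorl1 of 0.43 (SE 0.42). For the compound mutant against Tyrobp-/-;NLGF, edgeR called none of the 9 members, where 0.00981% of genes passed, and neither an unadjusted p below 0.05, which 4.08% of genes had, nor a DESeq2 call was found among them. All 3 compound libraries of Abi3 lay below both Tyrobp-/-;NLGF libraries (log2 fold change -0.15, SE 0.11, not called by edgeR), as did 9.66% of genes, and Sorl1 had -0.67 (SE 0.46). The interaction called no member by edgeR or DESeq2 and none had an unadjusted p below 0.05, which 4.7% of genes had, with -0.13 (SE 0.14) for Abi3.

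Partner genes of these pathways, in lists chosen with earlier results of these data known, were set beside the members in the mean Tyrobp effect. There 4.75% of all genes passed by edgeR and 19.2% had an unadjusted p below 0.05. None of 20 tested genes of the WAVE and ARP2/3 actin machinery passed by edgeR, with 6 at an unadjusted p below 0.05 and a median log2 fold change of -0.01. None of 13 tested paralogues of the members passed by edgeR, with 5 at an unadjusted p below 0.05 and a median of -0.09.

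Of 33 tested genes of clathrin-mediated endocytosis, 2 rose and 2 fell, with a median of -0.05. Dab2, a cargo adaptor, fell to 12.6 to 16.4 CPM (median 13.3) in the 5 Tyrobp-/- libraries, against 25.5 to 63.3 CPM (median 31.2) in the 6 others, with a log2 fold change of -1.36 (SE 0.22, edgeR adjusted p = 0.00818). Dab2 also fell on the Inpp5d+/- background (-1.56, SE 0.28, edgeR adjusted p = 0.0389). The clathrin light chain gene Cltb fell by 0.43 on the log2 scale (SE 0.093). Epn2, which encodes an epsin that bends coated membrane, rose 2.00-fold (SE 0.19 on the log2 scale) and was at 20.5 to 23.8 CPM in the 5 Tyrobp-/- libraries and 7.03 to 15.5 CPM in the 6 others. Sh3gl1, an endophilin gene, rose by 0.50 (SE 0.083). Libraries of these 4 genes did not overlap between Tyrobp genotypes. The genes were named because they were called in this comparison, so the lack of overlap is not separate evidence. Over all genes, 2.7% lay higher without overlap, and the share that lay lower is not given here.

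Of 30 tested early endosome and retromer genes, Vps45, which encodes a partner of endosomal fusion proteins, rose by 0.66 on the log2 scale (SE 0.14, edgeR adjusted p = 0.0306) and Rab7, the late endosome GTPase gene, fell by 0.34 (SE 0.064, edgeR adjusted p = 0.0163). Rab7 was at 178 to 209 CPM in the 5 Tyrobp-/- libraries and 237 to 252 CPM in the 6 others. The other 28 did not pass, and the list median was -0.03. Of 31 tested focal adhesion genes, 1 rose and 2 fell, with a median of -0.11, and those that fell are described here. Fyn, which encodes a tyrosine kinase, fell by 1.21 on the log2 scale (SE 0.28), and Itgb2, the integrin beta chain that pairs with CD11b, fell by 0.44 (SE 0.074). The libraries of both genes did not overlap between Tyrobp genotypes, which is not separate evidence, since they were named because they were called. CD11b was used to gate the cells.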

How the data were processed

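Microglia from 11 mouse libraries of 4 genotypes were measured by RNA sequencing. Per the labels' protocols, total RNA went into SMART-Seq v4 libraries, and the tools named by the submitters' processing notes are STAR 2.7.3a and featureCounts 1.6.4, with GRCm38.p6 and mm10 as builds. The authors deposited whole-number read counts per gene, without normalisation, and an exon length. Not given in the sources used here were the strand setting, the annotation release and the handling of reads that overlap several genes. Genes were filtered with filterByExpr (minimum count 10, minimum total 15) and scaled by TMM. CPM uses the scaled sizes. One model with a coefficient per genotype was fitted in edgeR 4.0.16 (R 4.3.3), with Benjamini-Hochberg adjustment over all 20390 genes and a threshold of 0.05, and SEs were taken from the test statistic. The procedure was also run on simulated counts, with equal Tyrobp effects on both Inpp5d backgrounds and no difference in neutrophil RNA between groups. The outcome is not reported here, and that run cannot address neutrophil RNA in these libraries. Also run were scaling by RLE or by upper quartile, a fit with no filter, DESeq2 1.42.0, limma-voom (limma 3.58.1), a neutrophil covariate, and libraries left out. The members and lists were chosen with earlier results of these data known. The series text gives as many mice as libraries per genotype, so the spread behind each p is that between mice. Named genes were the 10 members, genes sharing their exons, up to 4 called genes per partner list, the paralogues, and the 3 genes closest in profile to each called member. A called gene of the focal adhesion list is not reported here.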

Additional observations from a re-analysis of the deposited data

How the results depend on the processing

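The number of members called (1 in Tyrobp-/-;NLGF against NLGF and in the mean Tyrobp effect, and 0 in the other 5 comparisons) was the same with RLE scaling, upper-quartile scaling and limma-voom. In Tyrobp-/-;NLGF against NLGF it was 0 with no filter, with the neutrophil covariate and without the 2 libraries with most S100a8, and 0 to 1 with a library left out. In the mean Tyrobp effect it was 3 with DESeq2, 0 with the neutrophil covariate and 0 without those 2 libraries, and 1 to 2 with a library left out. DESeq2 called 1 member on the Inpp5d+/- background and 1 in the compound mutant against NLGF. The cause of these differences was not tested.

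Signs of uncalled fold changes turned as follows. With the neutrophil covariate, Cd2ap was at 0.32, 0.29 and 0.30 and Ptk2b at -0.23, -0.044 and -0.14 in Tyrobp-/-;NLGF against NLGF, on the Inpp5d+/- background and in the mean Tyrobp effect. Without the 2 libraries with most S100a8, Sorl1 was at -0.39 in Tyrobp-/-;NLGF against NLGF and 0.15 in the compound mutant against Tyrobp-/-;NLGF, and Cd2ap at 0.14 on the Inpp5d+/- background. With a library left out, Sorl1 ran from -0.39 to 0.87 in Tyrobp-/-;NLGF against NLGF, -0.58 to 0.054 in the mean Tyrobp effect, -0.63 to 0.21 in the compound mutant against NLGF and -1.15 to 0.066 in it against Tyrobp-/-;NLGF. Bin1 ran from -0.10 to 0.26 in Tyrobp-/-;NLGF against NLGF, Cd2ap from -0.19 to 0.18 on the Inpp5d+/- background and Abi3 from -0.082 to 0.053 in Inpp5d+/-;NLGF against NLGF.

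Over all genes, DESeq2 called 1035 in Tyrobp-/-;NLGF against NLGF where edgeR called 176, 1042 against 183 on the Inpp5d+/- background, 1008 against 178 in the compound mutant against NLGF and 2159 against 968 in the mean Tyrobp effect. With the neutrophil covariate these counts were 7, 37, 19 and 31. Neutrophil sums did not overlap between Tyrobp genotypes, so that fit cannot cleanly separate the covariate from the genotype. In the fits without a Tyrobp-/-;NLGF library, the lone library of that group was assumed to vary like the others. Clu had 0 to 252 counts in libraries of 1 genotype, so the spread between libraries limits its comparison. No paired analysis was possible because the labels give the genotypes no shared replicate numbers.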
